A study of Mus musculus with 2 samples.

Results

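The miR-34 and miR-449 family is a group of microRNAs (miRNAs) that share a seed, the stretch near the 5′ end that pairs with target mRNAs. Its members were taken by name, as every mature product of miR-34a, miR-34b, miR-34c, miR-449a, miR-449b and miR-449c, and 9 of the 1147 listed entries met this rule. Of these, 5 were 5p products and 4 were 3p products, from 5 hairpins at 3 loci. No measured value entered the choice by the rule, but the family was picked with earlier results of these data known.

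The data were small RNA libraries from the smooth muscle of the jejunum of mice aged 15 days on a C57BL/6 background. *Dnmt1*-KO mice lacked *Dnmt1*, the maintenance DNA methyltransferase, in cells that expressed a *Cre*-eGFP transgene from the *Myh11* promoter, and *Dnmt1*-WT mice carried the same transgene with *Dnmt1* intact. The strain label of both samples carries the Tg(Myh11-cre,-EGFP) transgene together with Dnmt1lox/lox alleles, so it does not tell the genotypes apart. RNA was extracted from the muscle wall after removal of the mucosa, so it came from whole tissue and not from sorted muscle cells, and cells outside the *Myh11* lineage kept *Dnmt1*. Animals of both sexes are listed for each genotype, and pooling of their RNA is not stated. There was 1 library per genotype, so every difference below is between 2 libraries, with no spread between animals to set it against and no test of genotype. Values are read counts scaled by the authors, where 1 unit is close to 1 read, and intervals are 95% intervals for counting error only. Because the tissue was sampled in bulk, a change in the number of cells that make a miRNA and a change in its amount per cell cannot be told apart.

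The miR-34 genes are best known as targets of the transcription factor p53, which activates them after DNA damage and other stress. Their products repress mRNAs of the cell cycle and of cell survival, including those of cyclins, cyclin-dependent kinases and *Bcl2*. Expression of miR-34b/c and miR-449 is highest in multiciliated epithelia and in the testis, where both loci act together in the formation of motile cilia and in sperm development. The miR-449 hairpins lie within *Cdc20b*, a gene switched on as cells become multiciliated.

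The mature sequences show what joins the family and where its members can be told apart. RefSeq sequences (GRCm38.p6) were matched for 8 of the 9 members, and none is given for miR-34c-5p. The 5p products are shown first because they carried nearly all reads, with the seed (bases 2 to 8) in capitals.
miR-34a-5p: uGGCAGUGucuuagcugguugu
miR-34b-5p: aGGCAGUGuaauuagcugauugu
miR-449a-5p: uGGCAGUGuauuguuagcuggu
miR-449c-5p: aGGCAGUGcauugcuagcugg
These 4 sequences had 1 seed, and no other of the 1679 mature names in the RefSeq table shared it. They differed at the first base, which was U in miR-34a-5p and miR-449a-5p and A in miR-34b-5p and miR-449c-5p, and in the 3′ part, and any pair was 4 to 7 edits apart over the whole sequence. Full-length reads of these 4 products can thus be told apart despite the shared seed.

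The 3p products are shown because the choice of arm within a hairpin is compared below, again with bases 2 to 8 in capitals.
miR-34a-3p: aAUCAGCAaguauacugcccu
miR-34b-3p: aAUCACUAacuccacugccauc
miR-34c-3p: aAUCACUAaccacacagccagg
miR-449c-3p: cAGUUGCUagcugcacuacccu
They held 3 seeds, of which miR-34b-3p and miR-34c-3p shared 1. Those products were identical over their first 10 bases and 5 edits apart over their whole length.

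The loci differ in their surroundings, and only miR-449 lies on the same strand inside a protein-coding gene. On GRCm38, the *Mir34a* hairpin is at chr4:150068454-150068555 on the plus strand and overlaps an exon of *Gm37795*, a transcript of unknown status on the same strand. *Mir34b* (chr9:51103562-51103645) and *Mir34c* (chr9:51103034-51103110) are on the minus strand with 451 bases between them, antisense to an intron of *Btg4*. *Mir449c* (chr13:113035983-113036091), *Mir449b* (chr13:113037419-113037498) and *Mir449a* (chr13:113037534-113037624) are on the plus strand in an intron of *Cdc20b*, with 1442 bases between the outer hairpins. No product of *Mir449b* and no 3p product of *Mir449a* was analysed here.

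The family was listed higher in *Dnmt1*-KO. Together the 9 entries came to 1789 in the *Dnmt1*-WT library and to 3235 in *Dnmt1*-KO, a ratio of 1.81 (1.71 to 1.92). As RPM, which relates reads to the implied reads of the same library, this was 311.6 (297.5 to 326.4) in *Dnmt1*-WT and 680.4 (657.4 to 704.2) in *Dnmt1*-KO. Library totals were 5741906 and 4754677 on the deposited scale, so the scaling bears on every ratio. With both totals set equal, the family ratio was 2.18 (2.06 to 2.31).

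The 3 loci moved by different amounts and in different directions. The miR-34a locus went from 530.5 to 1466, a ratio of 2.76 (2.50 to 3.06). The miR-34b/c locus went from 942.7 to 1539, a ratio of 1.63 (1.50 to 1.77). The miR-449 locus went from 315.9 to 230.3, a ratio of 0.729 (0.613 to 0.867). Thus both miR-34 loci were higher in *Dnmt1*-KO and the miR-449 locus was lower. With equal totals the interval of the miR-449 locus included 1 (ratio 0.880, interval 0.740 to 1.05), while the 34a and 34b/c loci stood at 3.34 and 1.97.

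How far the loci parted from one another does not depend on the scale between libraries. The ratio of the miR-34a locus was 1.69 times that of the miR-34b/c locus (1.49 to 1.93) and 3.79 times that of the miR-449 locus (3.10 to 4.64). That of the miR-34b/c locus was 2.24 times that of the miR-449 locus (1.85 to 2.71). Each of these intervals lay above 1, so the loci differed by more than counting error.

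The make-up of the family shifted accordingly. The miR-34a locus supplied 29.7% of the family's reads in *Dnmt1*-WT (95% Wilson interval 27.6 to 31.8%) and 45.3% in *Dnmt1*-KO (43.6 to 47.0%). The miR-34b/c locus supplied 52.7% (50.4 to 55.0%) and 47.6% (45.9 to 49.3%). The miR-449 locus supplied 17.7% (16.0 to 19.5%) and 7.12% (6.29 to 8.06%). For each locus the intervals of both libraries did not overlap, and such intervals were not computed for other families. The 3 shares make up the whole family, so they are not independent. The share of the miR-34b/c locus was lower in *Dnmt1*-KO although its level was higher (ratio 1.63). The miR-34b/c locus was the largest source in *Dnmt1*-WT, and in *Dnmt1*-KO the interval of its share overlapped that of the miR-34a locus.

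**Figure D1:**
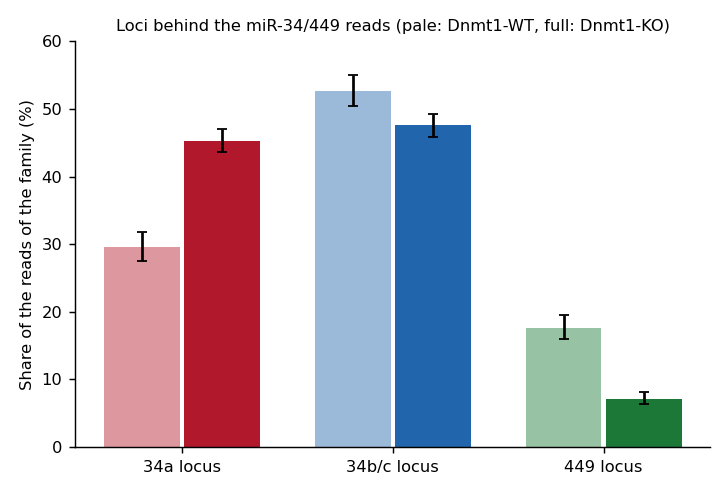
Share of the family's reads (%) that came from each locus, with pale bars for *Dnmt1*-WT, full bars for *Dnmt1*-KO and 95% Wilson intervals for counting error as error bars. The miR-34a share was 29.7% in *Dnmt1*-WT and 45.3% in *Dnmt1*-KO, and the miR-449 share 17.7% and 7.12%.

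Among the 3 members averaging at least 100, mmu-miR-34a-5p, the main product of the p53-responsive *Mir34a* gene, had the highest KO/WT ratio. It was listed at 528.5 in *Dnmt1*-WT and 1454.9 in *Dnmt1*-KO. The ratio was 2.75 (2.49 to 3.05), and it ranged from 2.75 to 3.32 over the deposited scale and 3 other scalings. In abundance it went from rank 175 in *Dnmt1*-WT to rank 123 in *Dnmt1*-KO. Among the 313 entries that averaged at least 100 and were listed above 0 for each genotype, its ratio held rank 10 from the top. Its 3p partner, normally the degraded strand, was listed at 2 and 11, and the ratio of 5.50 rested on so few reads that its interval ran from 1.19 to 50.8.

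The most abundant member in *Dnmt1*-WT was mmu-miR-34c-5p, which is cut from the same primary transcript as miR-34b. It was listed at 903.6 in *Dnmt1*-WT and 1458.4 in *Dnmt1*-KO, a ratio of 1.61 (1.48 to 1.76) that reached 1.95 with equal totals. Its ratio ranked 43 of 313. In *Dnmt1*-WT it exceeded miR-34a-5p, at 157.4 RPM (147.4 to 168.0) in contrast to 92.0 (84.5 to 100.2). In *Dnmt1*-KO the 2 miRNAs were level within counting error, at 306.7 (291.3 to 322.8) and 306.0 (290.7 to 322.1). Ligation favours some sequences over others, so the order of different miRNAs within a library is that of their reads. The KO/WT ratio of miR-34a-5p was 1.71 times that of miR-34c-5p (1.50 to 1.95).

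The minor products of the miR-34b/c locus were also listed higher in *Dnmt1*-KO. miR-34b-3p was listed at 21.1 and 45.9, a ratio of 2.18 (1.27 to 3.84). miR-34c-3p was listed at 8 and 22.9, a ratio of 2.86 (1.23 to 7.39). The intervals of both lay above 1. miR-34b-5p was listed at 10 and 11.5, and its ratio of 1.15 had an interval of 0.472 to 3.08, so a difference was not detectable at this depth.

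The hairpins of the miR-34b/c locus used their arms in different ways. For miR-34c, the 5p arm gave 99.1% of reads in *Dnmt1*-WT (98.3 to 99.6%) and 98.5% in *Dnmt1*-KO (97.7 to 99.0%). For miR-34b, the 5p arm gave 32.2% (18.6 to 49.9%) and 20.03% (12.3 to 32.8%), so that the 3p arm was the more abundant in both libraries. For miR-34a, the 5p arm gave 99.6% (98.6 to 99.9%) and 99.2% (98.7 to 99.6%). The intervals of both libraries overlapped for each hairpin, and no switch of arms between genotypes was detectable. The 5p and 3p log2 ratios were 0.92 apart in miR-34b and 0.83 apart in miR-34c, against a median gap of 0.54 over the 148 hairpins with both arms at a mean of at least 10. Gaps at least as large were found in 27.0% and 32.4% of these hairpins.

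The values of 2 members were not whole reads in *Dnmt1*-KO. When values were divided by the worth of 1 read, 16 of the 18 values of the family came within 0.1 of a whole number. The exceptions were miR-34b-5p and miR-34c-5p in *Dnmt1*-KO, at 11.5 and 1462.5 implied reads. Such values were not peculiar to the family. Among all values of at least 20 and at most 300, the shares that came this close were 91.1% (*Dnmt1*-KO) and 89.1% (*Dnmt1*-WT). Both exceptions lie outside that range. How reads that match several miRNAs were assigned is not given in the sources used here, and sharing of reads between these members was not tested. The level of miR-34b-5p is uncertain for this reason as well as for its low count.

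The miR-449 hairpins moved in opposite directions. mmu-miR-449a-5p was listed at 272.8 in *Dnmt1*-WT and 161.5 in *Dnmt1*-KO, a ratio of 0.592 (0.485 to 0.722). Its ratio held rank 265 of the 313 abundant entries. It was lower in *Dnmt1*-KO on each of the 4 scalings, with ratios from 0.592 to 0.715, and it was the only member averaging at least 10 that was lower. miR-449c-5p was listed at 42.1 and 68.8, a ratio of 1.63 (1.10 to 2.46). Its 3p partner was listed at 1 and 0, and a count of 0, taken to allow up to 3 reads, allows a share of up to 6.29e-05% of the *Dnmt1*-KO reads, so no ratio is given.

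The gap between miR-449a-5p and miR-449c-5p was larger than counting error. The ratio of miR-449c-5p was 2.75 times that of miR-449a-5p (1.76 to 4.35). Within the locus, miR-449c gave 13.6% of reads in *Dnmt1*-WT (10.3 to 17.9%) and 29.9% in *Dnmt1*-KO (24.3 to 36.1%). On the log2 scale the gap was 1.46, and 11 of the 148 hairpins (7.43%) had arms at least as far apart. Among 93 pairs of neighbouring hairpins up to 10 kb apart on 1 strand, a comparison chosen after the data were seen, the median gap was 0.49 and 5 pairs (5.38%, this pair included) were at least as far apart. Each hairpin was represented there by its most abundant product with a RefSeq sequence. For miR-34c this was the minor 3p product, because no sequence is given for miR-34c-5p. These gaps include counting error, which is large for entries averaging near 10.

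**Figure D2:**
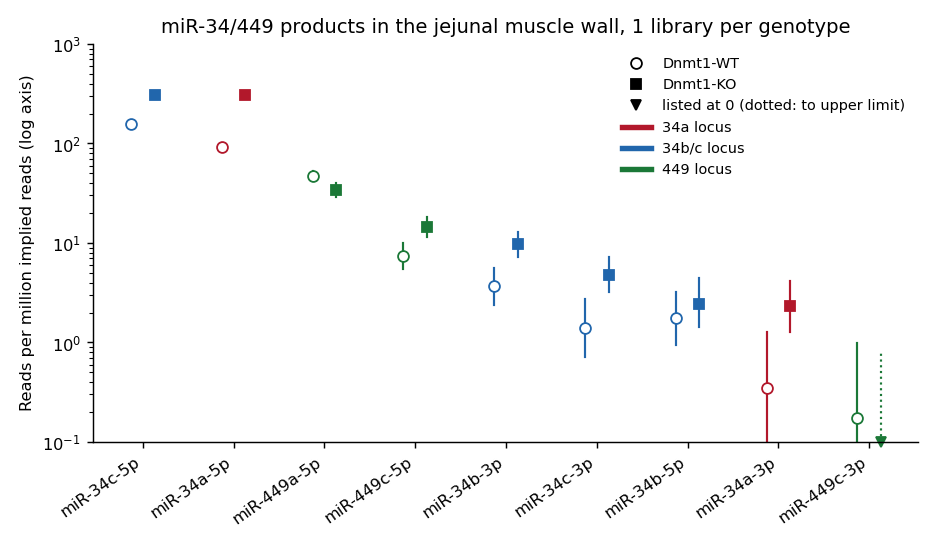
Level of each member in RPM (log axis), with open circles for *Dnmt1*-WT, filled squares for *Dnmt1*-KO, colours for the loci and lines for 95% Wilson intervals. miR-34a-5p and miR-34c-5p reach about the same level in *Dnmt1*-KO (306.0 and 306.7), and of those averaging at least 10 only miR-449a-5p lies lower in *Dnmt1*-KO.

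**Figure D3:**
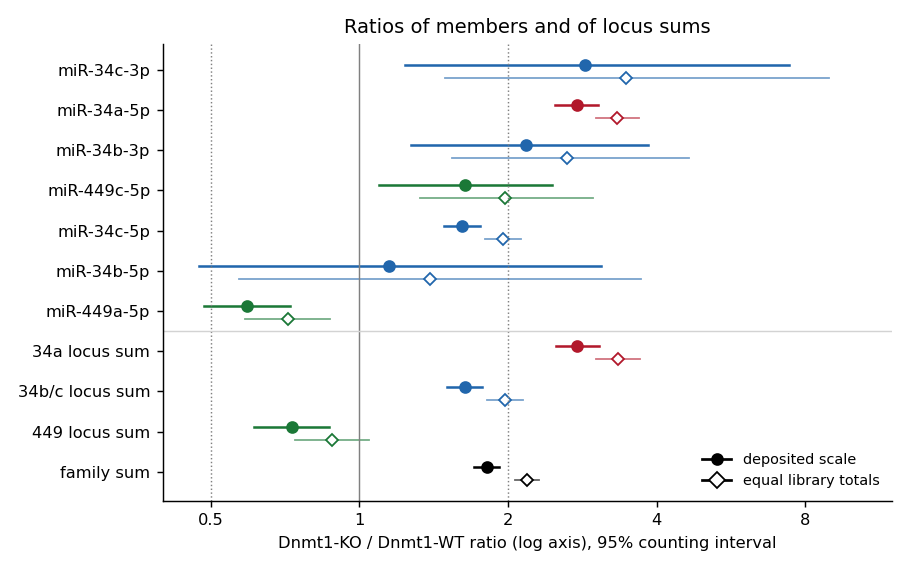
KO/WT ratios (log axis) of the 7 members averaging at least 10, of the 3 locus sums and of the family, with filled circles for the deposited scale, open diamonds for equal library totals and lines for 95% counting intervals. The intervals of miR-34a-5p lie above 2 on both scales and those of miR-449a-5p lie below 1.

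Counted by direction, 7 of the 9 members were higher in *Dnmt1*-KO and 2 lower. The share of all entries for this count was not computed, but the median KO/WT ratio of the 794 entries above 0 in both libraries was 1. Few reads lie behind 3 of the 9, miR-34a-3p (2 and 11), miR-34b-5p (10 and 11.5) and miR-449c-3p (1 and 0). Of the 9, 4 were at least 2-fold higher (miR-34a-5p, miR-34a-3p, miR-34b-3p and miR-34c-3p), in contrast to 26.7% of all entries. With 10 added to each value, only miR-34a-5p of these stayed at or above 2-fold. A single member, miR-449c-3p with its 1 read, was at least 2-fold lower, in contrast to 23.1% of all entries. Over the 7 members averaging at least 10, 3 were at least 2-fold higher (11.4% of all entries with that mean) and 0 were at least 2-fold lower (9.94%). Of the 7, 6 were higher by any amount (51.6% of such entries) and 1 was lower (47.9%). Of the 3 members averaging at least 100, 1 was at least 2-fold higher (6.33% of entries that abundant) and 0 were at least 2-fold lower (8.86%). The median log2 ratio of the 7 members averaging at least 10 was 0.71, beside 0.02 over the 531 entries of that mean listed above 0 for each genotype. Members of 1 hairpin or cluster are not independent, and with 1 library per genotype these counts describe the libraries alone.

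**Figure D4:**
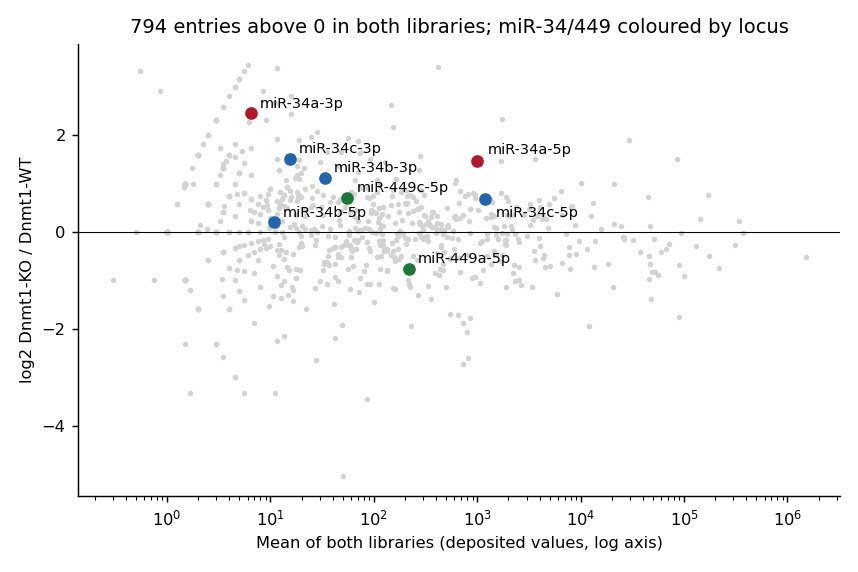
Log2 KO/WT ratio against the mean of both libraries (deposited values, log axis) for the 794 entries above 0 in both, in grey, with the 8 such members of the family coloured by locus. The spread widens at low means, where miR-34a-3p, miR-34c-3p and miR-34b-5p lie, and miR-34a-5p (log2 ratio 1.46) stands near the upper edge of entries of its level.

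Over those 7 members, the 21 pairs of ratios were compared, with no adjustment of the intervals. In 7 pairs the interval of the quotient lay above 1. Of these, 5 set miR-449a-5p below another member (miR-34a-5p, miR-34c-5p, miR-34b-3p, miR-34c-3p and miR-449c-5p), and the other 2 set miR-34a-5p above miR-34c-5p and miR-449c-5p. Intervals for pairs of other entries were not computed, so whether 7 of 21 is unusual was not tested. The largest well-counted quotient was 4.64 (3.71 to 5.82), between miR-34a-5p and miR-449a-5p, whose sequences are identical over the first 9 bases. The ratios of miR-34c-5p and miR-449c-5p differed by less than counting error (quotient 1.01, interval 0.673 to 1.54), which leaves room for a difference of either sign.

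For each abundant member, the 3 miRNAs nearest in level in both libraries were looked up by distance in log2(value + 1). Nearest to miR-34a-5p were miR-542-3p, miR-340-5p and miR-150-5p, at distances of 0.47 to 0.52. Nearest to miR-34c-5p were miR-409-3p, miR-337-5p and miR-136-5p (0.26 to 0.32). Nearest to miR-449a-5p were let-7a-1-3p, miR-133b-3p and miR-1981-5p (0.02 to 0.14). With 2 libraries, such likeness rests on 2 values per miRNA.

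A list of 10 other miRNAs that textbooks link to p53 was set beside the family. On the deposited scale, 3 were higher in *Dnmt1*-KO (miR-192-5p and, named after their values were seen, miR-200c-3p and miR-141-3p), 7 were lower, and 0 reached 2-fold in either direction. All 10 averaged at least 10, so the shares to set beside these counts are those given above for entries of that mean (51.6% higher and 47.9% lower by any amount, 11.4% and 9.94% by 2-fold). With equal totals 5 were higher and 5 lower, and only miR-192-5p (ratio 2.16) reached 2-fold. miR-192-5p, an intestinal epithelial miRNA, was listed at 4619 and 8272, a ratio of 1.79 (1.73 to 1.86). Its cluster partner miR-194-5p and its relative miR-215-5p had ratios of 0.958 (0.892 to 1.03) and 0.977 (0.945 to 1.01), which became 1.16 and 1.18 with equal totals. The cell-cycle regulator miR-16-5p was listed at 108958 and 67965, a ratio of 0.624 (0.618 to 0.630), and miR-107-3p had a ratio of 0.584 (0.535 to 0.635). The list's median log2 ratio was -0.29 on the deposited scale and -0.02 with equal totals. The smooth muscle miRNAs miR-143-3p and miR-145a-5p (ratios 0.694 and 0.598) and 5 miRNAs of the epithelial list belong to it too, so it does not stand for p53 alone.

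Marker miRNAs of smooth muscle and of other cells also differed between the 2 libraries, in 1 direction for some lists and in both for others. The labelled tissue was checked with smooth muscle miRNAs, of which miR-143-3p was listed at 1777100 and 1232984, the highest values of both libraries. Every marker named or counted in this paragraph averaged at least 10. Of all entries with that mean, 51.6% were higher and 47.9% lower on the deposited scale. All 6 smooth muscle markers were lower in *Dnmt1*-KO, with a summed ratio of 0.652 (0.651 to 0.654). Its other abundant members, miR-145a-5p, miR-143-5p, miR-145a-3p and miR-133a-3p, had ratios of 0.598, 0.259, 0.413 and 0.295. All 6 leukocyte markers were higher, with summed values of 12734 and 18733 and a ratio of 1.47 (1.44 to 1.50). miR-146a-5p, the most abundant of them, had a ratio of 1.26, and miR-142a-5p one of 5.01. Of the 8 epithelial markers 4 were higher and 4 lower, and with equal totals all 8 were higher. Their sums were 14503 and 18129 (ratio 1.25, 1.22 to 1.28). On the deposited scale miR-192-5p (4619 and 8272) carried this rise, and the rest of the list summed to about the same in both libraries. Of the 6 neural markers 2 were higher and 4 lower, with sums of 9217 and 8066 (ratio 0.875, 0.849 to 0.902), and with equal totals 3 were higher, 3 lower and the summed ratio turned to 1.06. The neural miR-9-5p, miR-128-3p, miR-138-5p and miR-129-5p had ratios of 1.09, 0.965, 0.453 and 1.28.

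Because miR-34b/c and miR-449 are abundant in the testis, X-linked miRNAs of the germ line were set beside them as well. Of 15 listed, 14 were found, and 11 of these were listed at 0 in *Dnmt1*-WT while none was at 0 in *Dnmt1*-KO. Of all 1147 entries, 963 were listed above 0 in *Dnmt1*-WT and 978 in *Dnmt1*-KO. Only 794 were above 0 in both libraries, so many entries outside the germline list were also present in *Dnmt1*-KO alone. The sum of the 14 germline miRNAs went from 10 to 2778, of which miR-871-3p gave 1208 in *Dnmt1*-KO. The miR-34b/c locus was present in both libraries and 1.63-fold higher in *Dnmt1*-KO, while miR-449a-5p was lower and miR-449c-5p was 1.63-fold higher. The part of these other cell types and of the germline miRNAs in the values of the family was not tested.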

How the data were processed

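Small RNA libraries were prepared with an Illumina TruSeq Small RNA kit. A commercial provider processed the reads against GRCm38/mm10, and the submitters' processing notes name Bowtie. The miRNA database release, the handling of reads with several matches and the scaling are not given in the sources used here. Most deposited values lie close to a whole read count times a library factor, given to 1 decimal, as worked out from the values. Among values from 20 to 300, 89.1% of 229 in *Dnmt1*-WT and 91.1% of 248 in *Dnmt1*-KO lay within 0.1 of a whole multiple of 1.00286 and 0.99721. A column of the authors' own KO/WT fold changes was not used. Groups followed the genotype labels. A free-text field gives the mutant genotype for both samples and was not followed.

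Division by the steps gave 5725560 and 4767987 implied reads. Ratios carry exact Clopper-Pearson intervals of the KO share of both libraries' implied reads, quotients of ratios carry conditional exact intervals and shares carry Wilson intervals (Python 3.11.15, scipy 1.17.1). PCR copies were not marked by molecular identifiers, so these intervals cover counting error only. The code was tested on simulated data. Because 1 library per genotype leaves no residual variation, no p-value was computed. An entry counted as called at a 2-fold ratio of deposited values without pseudocount, including entries listed at 0 in 1 library. Named miRNAs were all members, the 3 nearest entries of each abundant member, and from each list the most abundant member and those with a mean of at least 1000. The rule does not cover further names, which were added with the values in view. The members and lists were chosen with earlier results of these data known. Positions came from GENCODE M21 and sequences from RefSeq, both on GRCm38. Alternatives covered scaling, pseudocount, a minimum mean and the entries summed.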

Additional observations from a re-analysis of the deposited data

How the results depend on the processing

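Each ratio of a member, a locus or the family was recomputed under 3 other scalings and with pseudocounts of 1 and 10, all planned. Equal totals multiply each KO value by 1.21 and equal totals without miR-143-3p by 1.13, which moved ratios beyond their counting intervals but turned no direction among the family, its loci or the members averaging at least 10. The marker lists were recomputed with equal totals only, where the neural sum turned from 0.875 to 1.06. The family ratio became 2.18 and 2.04, that of the miR-34a locus 3.34 and 3.11, and that of the miR-34b/c locus 1.97 and 1.84. The miR-449 locus moved to 0.880 with equal totals. The family sum thus lies on either side of 2-fold by scaling. Of the single members, only miR-34a-5p (3.32 and 3.10) and miR-34c-5p (1.95 and 1.82) moved beyond their intervals. The count of members at least 2-fold higher fell from 4 to 1 with a pseudocount of 10, and that of members at least 2-fold lower from 1 to 0 with a pseudocount of 10, which shrinks the ratios of low entries, or a mean of at least 10, which leaves them out. Over all entries, a mean of at least 10 left 62 higher and 54 lower. Shares of loci and arms stayed within their intervals. No paired analysis was possible because each genotype had 1 library, and leaving out a library was not possible for the same reason. The depth limits the 3p products and miR-34b-5p, each listed under 50 in both libraries.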
